A study of Mus musculus with 80 samples.

Results

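The Hox cluster genes were followed as wild-type mouse embryonic stem cells (ESCs) of the line E14 left serum medium for 2i. All genes whose symbol is Hox, a letter from a to d and a number were taken from the expression table, which gave 39 of its 25965 genes. Of these, 11 lay in the HoxA cluster on chromosome 6, 10 in HoxB on chromosome 11, 9 in HoxC on chromosome 15 and 9 in HoxD on chromosome 2 (GRCm38). RNA-seq covered 12 samples, 3 each from serum medium and from 6, 24 and 72 h in 2i. H3K9me2, the dimethylated form of lysine 9 on histone H3, was mapped by ChIP-seq in 6 bound libraries, 2 for each of serum, 24 h in 2i and prolonged 2i culture (LT2i), beside 1 input per condition. The ChIP samples carry the same line and genotype labels as the RNA samples. Serum medium held LIF, and 2i was a serum-free medium with LIF and inhibitors of the kinases MEK and GSK3, so the loss of serum and the gain of the inhibitors cannot be told apart. A single cell line was sampled. The study speaks of biological replicates for expression, but no label says that samples of a group were separate cultures, so p-values measure the spread between these samples, which may be partly technical.

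Hox genes encode homeodomain transcription factors that tell cells their position along the body axis. Within a cluster the genes stand in the order in which they are used, with paralogue group 1 acting early and near the head and group 13 late and near the tail. In ESCs the clusters are a textbook target of Polycomb, whose repressive mark H3K27me3 covers them together with the activating mark H3K4me3, and retinoic acid, WNT and CDX proteins open them during differentiation. H3K9me2 is another mark of silent chromatin, laid down in broad domains mainly by G9a and GLP.

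RefSeq promoter windows (GRCm38.p6, 250 bases before to 50 after a start) were at hand for 22 of the 39 genes, in 24 windows. They held a median of 14.5 CpG dinucleotides, against 7 over 32851 promoters of all genes, and ranged from 4 (Hoxa9, Hoxd4 and a start of Hoxd11) to 45 (Hoxa13). The 250 bases before the start are shown for the 4 genes that mark the ends of the patterns described below, with CpG in capitals. Hoxb1 and Hoxd1 carried the most H3K9me2 among the HoxB and HoxD genes, Hoxd13 had no H3K9me2 read in serum, and Hoxa10 is shown at the start where its gene begins in the expression table.
Hoxb1, chr11:96365508-96365757, plus strand: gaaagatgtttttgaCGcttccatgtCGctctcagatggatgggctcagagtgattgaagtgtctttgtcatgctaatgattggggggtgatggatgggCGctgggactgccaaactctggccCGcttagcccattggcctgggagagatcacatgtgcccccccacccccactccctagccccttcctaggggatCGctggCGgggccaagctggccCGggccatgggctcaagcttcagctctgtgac
Hoxd1, chr2:74762730-74762979, plus strand: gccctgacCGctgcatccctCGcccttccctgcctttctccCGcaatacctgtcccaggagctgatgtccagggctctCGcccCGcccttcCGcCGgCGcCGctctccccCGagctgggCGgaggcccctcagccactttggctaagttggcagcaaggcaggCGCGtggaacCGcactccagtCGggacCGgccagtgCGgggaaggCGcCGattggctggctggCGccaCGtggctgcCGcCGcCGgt
Hoxa10, chr6:52240855-52241104, minus strand: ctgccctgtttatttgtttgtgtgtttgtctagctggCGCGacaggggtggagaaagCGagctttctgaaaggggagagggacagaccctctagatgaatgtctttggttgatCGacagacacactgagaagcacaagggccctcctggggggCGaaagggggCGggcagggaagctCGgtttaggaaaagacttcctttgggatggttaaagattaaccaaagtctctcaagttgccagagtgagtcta
Hoxd13, chr2:74667975-74668224, plus strand: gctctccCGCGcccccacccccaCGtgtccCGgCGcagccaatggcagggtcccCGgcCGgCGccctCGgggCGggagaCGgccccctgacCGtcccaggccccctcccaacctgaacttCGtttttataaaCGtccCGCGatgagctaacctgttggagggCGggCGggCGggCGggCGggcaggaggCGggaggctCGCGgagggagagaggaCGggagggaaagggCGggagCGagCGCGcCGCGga
These 250 bases held 7 CpG in Hoxb1, 24 in Hoxd1, 7 in Hoxa10 and 31 in Hoxd13. The other Hoxa10 start, not shown, had 20 CpG in the 250 bases before it. Across the 22 genes the correlation of the CpG count of the 300-base window with the serum H3K9me2 level was -0.22 (Pearson) and -0.12 (Spearman), given as a description because neighbouring genes share bins and base composition.

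The RNA libraries held 7835685 to 11809404 recovered reads, and the ChIP libraries 14396552 to 23785128 reads in bins. The samples carried the ESC label, and Pou5f1, the central pluripotency factor, lay between 7.73 and 9.01 on the log2 expression scale in all 12. At 72 h, 5 of 8 pluripotency markers rose and 1 fell. Over all tested genes 51.4% were called at that time, 25.4% higher and 26.0% lower. Of the markers of other cell types tested at that time, 1 of 3 for primitive endoderm rose and 1 fell, 2 of 4 for mesoderm, 3 of 4 for neural cells and 2 of 2 for fibroblasts fell, and none of these 3 lists held a marker that rose. The summed linear level of the 6 neural markers was 43.3 to 45.0 in serum, 90.2 to 92.7 at 6 h, 56.5 to 74.8 at 24 h and 27.8 to 32.7 at 72 h, most of it from Tubb3, and its part in the Hox values was not tested. Among the markers of progenitors in that list Neurog2 had 1 read over all 12 libraries. In such bulk samples, more cells that use a gene and more RNA per cell cannot be told apart.

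In serum the Hox genes were expressed at very low levels. Values are log2 expression per gene length, scaled by the authors to a common 75th percentile, which was 2.51 in serum replicate 1. Among the higher means in serum were Hoxc13 at -0.22 ± 0.20 (SD, n = 3), Hoxb9 at -0.29 ± 0.24 and Hoxd13 at -0.33 ± 0.12, whose ranges overlapped one another. Whole reads could be recovered from the values. No read was found in serum for Hoxa6, Hoxb6, Hoxc5 or Hoxd12. For the 20 members with a read in every library, the recovered numbers are the smallest whole numbers that fit.

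**Figure D1:**
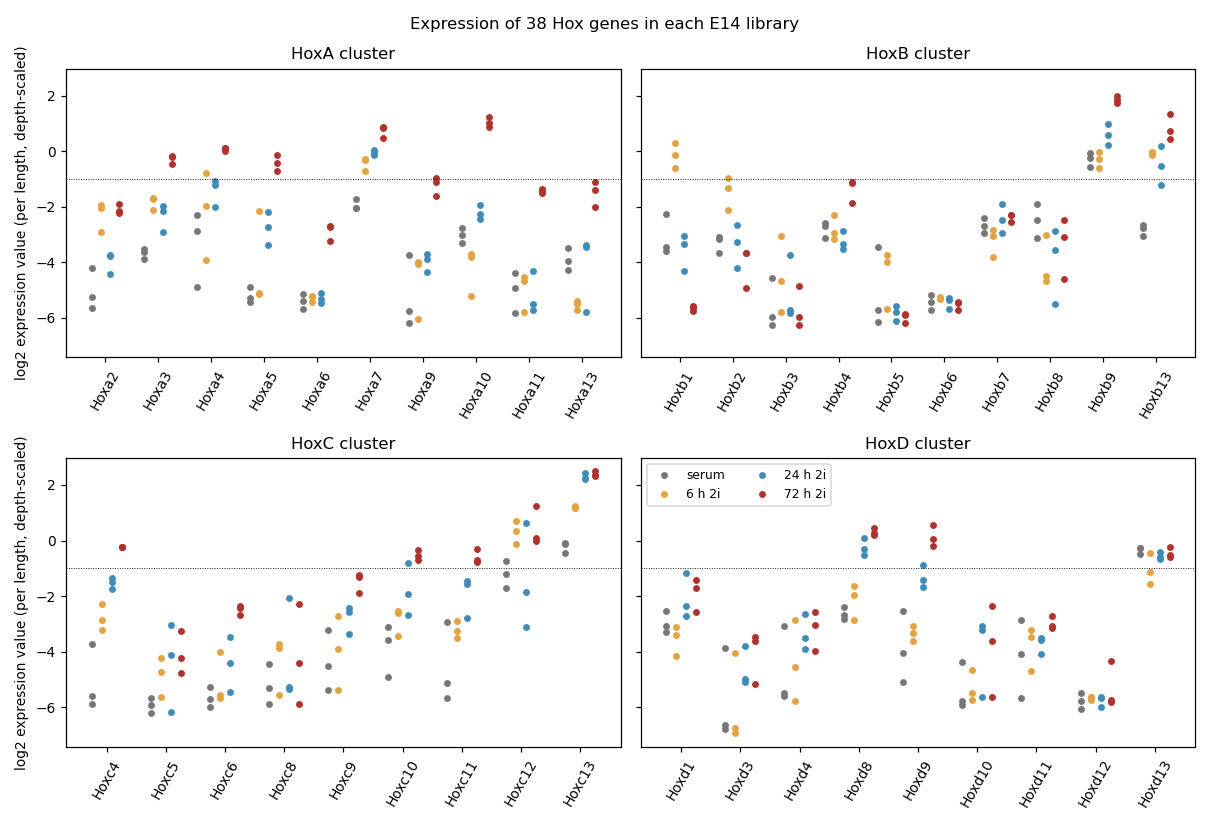
Expression of the Hox genes in the 12 E14 libraries, in 4 panels by cluster; the x axis lists genes by paralogue group, the y axis gives the log2 expression value per length, each point is 1 library, and the dotted line at -1 is the level a gene had to reach in 3 libraries to be tested. The HoxA and HoxC genes drawn have their highest mean at 72 h, while Hoxb1 and Hoxb2 are highest at 6 h.

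By 72 h in 2i most of the Hox genes stood above serum. The mean was highest at 72 h for all 11 HoxA genes, 4 of 10 in HoxB, all 9 in HoxC and 8 of 9 in HoxD. It was highest at 6 h for 5 HoxB genes (Hoxb1, Hoxb2, Hoxb3, Hoxb5 and Hoxb6), and in serum for Hoxb8 and Hoxd13. These counts are a description, since the same share over all genes was not tabulated. Some rest on few reads: Hoxc8 had 14 in sum at 24 h and 11 at 72 h, Hoxd12 had 3, 0 and 0 at 72 h, and Hoxb6 had 2 in all. In 24 of the 39 genes all 3 values at 72 h lay above all 3 serum values, against 25.6% of all genes with a read, and in 2 they lay below, against 26.6%. Genes with few or no reads in serum can hardly fall below it.

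Summed over each cluster and scaled to the depth of serum replicate 1, reads rose in steps that differed between the clusters. HoxA, summed over 10 members, held 45.1 ± 10.1 reads (SD, n = 3) in serum, then 106 ± 4.17, 122 ± 5.39 and finally 481 ± 19.5 at the 3 times in 2i. Its largest step therefore lay between 24 and 72 h. HoxC climbed more evenly, with 58.4 ± 5.61, 156 ± 15.0, 298 ± 30.5 and 395 ± 17.7 reads. HoxB held 93.4 ± 10.6, 174 ± 25.1, 146 ± 24.5 and 310 ± 9.82 reads, and its 6 and 24 h ranges overlapped. HoxD held 67.1 ± 9.91, 58.2 ± 18.4, 124 ± 22.6 and 187 ± 3.75 reads, with serum and 6 h overlapping. These sums are a description and carry no test. They may count reads of overlapping genes more than once, since the counter is not named and Hoxa3 spans Hoxa4, Hoxa5 and Hoxa6, Hoxd3 overlaps Hoxd4, and Hoxb7 overlaps Hoxb8.

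**Figure D2:**
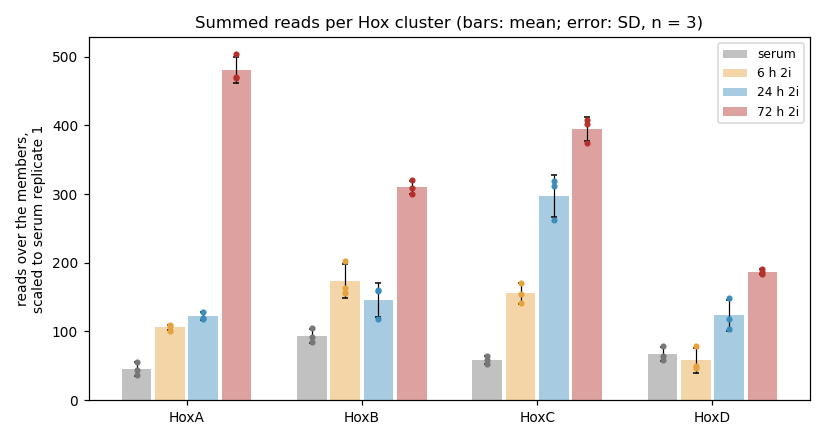
Recovered reads summed over the members of each Hox cluster and scaled to the depth of serum replicate 1 (y axis), for serum and 6, 24 and 72 h of 2i (bars, mean; error bars, SD, n = 3; points, libraries). HoxA, drawn from 10 members, goes from 106 at 6 h and 122 at 24 h to 481 at 72 h, HoxC rises at each step, and HoxD rises only after 6 h.

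A few genes carried most of these reads. Over the 10 HoxA members summed, Hoxa7 took 31.4% of the serum reads and 18.9% of those at 72 h, whereas the share of Hoxa10 dropped to 3.9% by 6 h and reached 31.0% by 72 h. Hoxc13 held 68.2% of HoxC reads in serum and 61.7% at 72 h. In HoxD, Hoxd13 fell from 53.8% to 18.7% of the reads while Hoxd8 and Hoxd9 together with it came to hold most of them, at 34.2% and 24.6%. In HoxB, Hoxb9 held 43.6% in serum and 57.1% at 72 h, and Hoxb1 went from 6.4% to 23.5% at 6 h and 0.10% at 72 h.

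Changes against serum were tested with limma over all 13780 genes that reached -1 in at least 3 of the 12 libraries, with Benjamini-Hochberg adjustment, and called at an adjusted p under 0.05. Only 17 Hox genes were tested. They included Hoxa3, Hoxa4, Hoxa5, Hoxa7, Hoxa10, Hoxb1, Hoxb9, Hoxb13, Hoxc4, Hoxc10, Hoxc11, Hoxc12, Hoxc13, Hoxd8, Hoxd9 and Hoxd13. Of these, 8 (Hoxa3, Hoxa4, Hoxa5, Hoxa10, Hoxc4, Hoxc10, Hoxc11 and Hoxd9) passed only through their 72 h values and Hoxb1 only through 6 h. They had to differ between groups, so counts and medians over the 17 are a description, and a p-value of these genes that involves the admitting time draws on the values that admitted them. In the fit without the filter, which admitted all members, the 8 were called higher at 72 h and Hoxb1 higher at 6 h. The other 22 members had 2 to 194 reads over all 12 libraries.

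At 6 h, 7 of the 17 were called and all 7 rose, against a background of 15.7% of tested genes called (9.46% higher). The median change of all 39, fitted without the filter, was 0.56 on the log2 scale, against 0.05 over all genes in that fit, and that of the 17 was 1.35. The members that rose belonged to different ends of the clusters, among them Hoxa3 and Hoxb1 of groups 1 to 3, Hoxa7 and Hoxc4 of groups 4 to 8, and Hoxb13 and Hoxc13 of groups 9 to 13. Without the filter all 39 could be fitted and 9 were called, all higher, against 11.7% called (7.15% higher). The added genes were Hoxa2 and Hoxb2, so that 5 of the 8 genes of groups 1 to 3 rose, against 2 of 15 in groups 4 to 8 and 2 of 16 in groups 9 to 13; the difference between these groups was not tested. No HoxD gene was called at 6 h.

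Hoxb1, which patterns the hindbrain and is a direct retinoic acid target, showed the sharpest pulse. Its values were -3.45, -3.59 and -2.27 in serum, -0.61, -0.13 and 0.28 at 6 h, -4.30, -3.04 and -3.36 at 24 h, and -5.74, -5.58 and -5.63 at 72 h. In reads these were 4, 3 and 11, then 26, 39 and 54, then 2, 5 and 5, and finally 1, 0 and 0. All 6 h values lay above all others and all 72 h values below all others. The change at 6 h was 2.95 ± 0.50 (SE, adjusted p = 0.0020 in limma), and at 24 h it was -0.46 ± 0.50 (adjusted p = 0.44). At 72 h it fell by 2.55 ± 0.50 (adjusted p = 0.0013), and with 1 read against 18 in serum the depth-scaled ratio was 0.052 with an exact 95% counting interval of 0.0013 to 0.33, which covers counting error only. With a pseudocount of 0.5 that call was lost (-0.27, adjusted p = 0.12).

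Hoxb2, the neighbour of Hoxb1, had 7, 6 and 6 reads in serum, 29, 14 and 25 at 6 h, 9, 6 and 4 at 24 h and 6, 2 and 5 at 72 h. Its 6 h values did not overlap with those of any other time. It stayed below the filter, and the fit without the filter gave 1.83 ± 0.48 at 6 h (adjusted p = 0.029 in limma). Hoxb3, Hoxb5 and Hoxb6 had 20, 14 and 2 reads in all.

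Hoxa2, which sets second-arch identity, had 0, 1 and 3 reads in serum, 10, 6 and 12 at 6 h, 3, 2 and 4 at 24 h, and 15, 10 and 10 at 72 h. Hoxa3 had 10, 7 and 13 reads, then 34, 28 and 39, then 15, 26 and 37, then 134, 89 and 109. It changed by 1.84 ± 0.30 at 6 h (adjusted p = 0.0016 in limma), and since its span holds Hoxa4 to Hoxa6 its reads may be shared with theirs.

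Among the later-acting genes, Hoxb13 rose most at 6 h. Its values were -3.05, -2.78 and -2.66 in serum, -0.02, -0.02 and -0.15 at 6 h, -0.53, 0.17 and -1.21 at 24 h, and 0.73, 1.33 and 0.45 at 72 h. All 9 values in 2i lay above serum. The change was 2.77 ± 0.33 at 6 h (adjusted p = 0.00015 in limma), 2.31 ± 0.33 at 24 h and 3.67 ± 0.33 at 72 h (adjusted p = 3.7e-06). Hoxb13 lies apart from the rest of HoxB and acts at the tail end of the axis. Hoxa7 went from -2.06, -2.03 and -1.72 in serum to -0.30, -0.33 and -0.70 at 6 h (change 1.49 ± 0.18, adjusted p = 0.00021 in limma) and on to 0.88, 0.47 and 0.83 at 72 h. Hoxc13, a regulator of hair and nail keratins, rose by 1.41 ± 0.12 at 6 h.

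At 24 h, 13 of the 17 were called and all 13 rose, against 61.5% of tested genes called (33.5% higher). Without the filter 13 of 39 were called, against 47.4%, and all 13 were higher, against 25.6%. The median change of all 39 without the filter was 1.06, against 0.06 over all genes, and that of the 17 was 1.93. The 4 not called were Hoxa10, Hoxb1, Hoxc12 and Hoxd13. At this time changes followed gene span over all tested genes, from a median of 0.51 in the shortest of 5 classes to -0.38 in the longest. With that trend removed 11 of the 17 were called, all higher, against 61.1%, and Hoxa4 (1.48) and Hoxb9 (0.49) lost their calls.

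HoxC and HoxD genes made up most of the largest changes at 24 h. Hoxc4 had 1, 3 and 1 reads in serum, 6, 5 and 10 at 6 h, 13, 16 and 22 at 24 h and 50, 40 and 42 at 72 h, a climb in which no group overlapped with the next. Its change was 2.27 ± 0.51 at 6 h (adjusted p = 0.010 in limma), 3.53 ± 0.51 at 24 h (adjusted p = 0.00014) and 4.83 ± 0.51 at 72 h (adjusted p = 1.3e-05). It lost its call at 6 h with only the 6 samples compared (adjusted p = 0.057) and with a pseudocount of 0.5 (0.066). Hoxc13 had values of -0.44, -0.09 and -0.11 in serum, 1.18, 1.23 and 1.17 at 6 h, 2.25, 2.45 and 2.21 at 24 h and 2.50, 2.35 and 2.31 at 72 h. Its change of 2.52 ± 0.12 at 24 h (adjusted p = 1.0e-07 in limma) was followed by 0.08 ± 0.12 from 24 to 72 h (adjusted p = 0.62), and these groups overlapped.

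Hoxd9, a limb and trunk patterning gene, had values of -2.55, -5.09 and -4.06 in serum, -3.63, -3.33 and -3.06 at 6 h, -0.89, -1.68 and -1.42 at 24 h and 0.05, 0.57 and -0.18 at 72 h. Serum and 6 h overlapped, and all later values lay above both. The change was 2.57 ± 0.54 at 24 h (adjusted p = 0.0018 in limma) and 4.04 ± 0.54 at 72 h (adjusted p = 8.5e-05). Hoxd8 rose in the same steps, with 8, 6 and 12 reads in serum, 12, 7 and 17 at 6 h, 50, 34 and 49 at 24 h and 76, 59 and 72 at 72 h. Its change at 24 h was 2.40 ± 0.31 (adjusted p = 6.3e-05 in limma).

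Hoxc11 had 5, 0 and 0 reads in serum, 3, 5 and 4 at 6 h, 5, 13 and 15 at 24 h and 38, 22 and 24 at 72 h. Its serum replicate 1 stood apart from the other serum libraries and equalled the lowest 24 h library in reads. The change was 2.64 ± 0.64 at 24 h (adjusted p = 0.0041 in limma) and 3.99 ± 0.64 at 72 h (adjusted p = 0.00032). Hoxc10, a neighbour on the same strand, had 3, 1 and 5, then 3, 6 and 6, then 5, 9 and 24, then 27, 24 and 29 reads. It shares its span with the transcript Gm20398, so its reads may be shared.

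**Figure D3:**
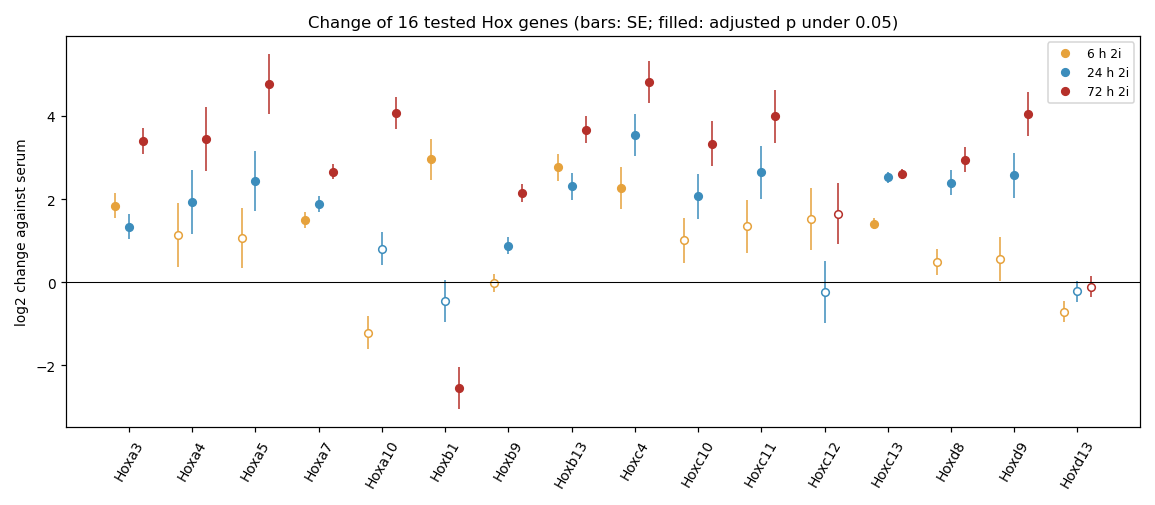
Log2 change against serum (y axis) of the tested Hox genes (x axis, by cluster and paralogue group) at 6, 24 and 72 h of 2i; bars are the SE of the limma fit and filled points have an adjusted p under 0.05. Hoxb1 alone is called higher at 6 h and lower at 72 h, Hoxd13 and Hoxc12 are called at no time, and Hoxc4 and Hoxa5 change most at 72 h.

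At 72 h, 15 of the 17 were called, 14 higher and 1 lower, against 51.4% of tested genes called (25.4% higher and 26.0% lower). The median change of all 39 without the filter was 2.39, against -0.05 over all genes. Over the 17 it was 3.33, a value that the 8 members admitted by their 72 h level help to set. Without the filter 23 of 39 were called, 22 higher and Hoxb1 lower, against 41.1% (20.4% higher). In that fit all 11 HoxA genes were called, all higher, beside 3 higher and 1 lower of 10 in HoxB, 6 of 9 in HoxC and 2 of 9 in HoxD, where Hoxd8 and Hoxd9 stood alone. The members it added were Hoxa2, Hoxa6, Hoxa9, Hoxa11, Hoxa13, Hoxb4, Hoxc6 and Hoxc9, with 17 to 101 reads over the 3 libraries at 72 h.

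The genes at the late end of HoxA had few reads until 24 h and rose at 72 h. Hoxa10, which acts in the uterus and in blood progenitors, had values of -3.00, -3.32 and -2.75 in serum, -3.71, -3.82 and -5.20 at 6 h, -2.44, -2.28 and -1.95 at 24 h and 1.03, 1.23 and 0.88 at 72 h. In reads these were 9, 6 and 13, then 5, 5 and 2, then 12, 14 and 22, and then 180, 167 and 136. The 6 h values lay below serum, with a change of -1.22 ± 0.39 that missed the threshold (adjusted p = 0.059 in limma) and passed it after quantile normalisation (-2.01, adjusted p = 0.0038), with eBayes without trend (0.034) and without 6 h replicate 1 (0.048). The 24 h values lay above serum without a call, and the 72 h values lay far above all others. The change was 4.07 ± 0.39 against serum (adjusted p = 7.2e-06 in limma) and 3.27 ± 0.39 against 24 h (adjusted p = 0.00016). Hoxa9, a factor of blood stem cells, had 7 reads over the 3 serum libraries, 8 at 6 h, 13 at 24 h and 93 at 72 h. Hoxa11 had 4, 4, 4 and 61. Hoxa13 had 10, 2, 9 and 53, and its 6 h values lay below serum with a change of -1.63 ± 0.56 in the fit without the filter (adjusted p = 0.089 in limma).

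Hoxa5, a patterning gene of the lung and neck skeleton, had 0, 1 and 1 reads in serum, 0, 1 and 8 at 6 h, 7, 5 and 4 at 24 h and 39, 26 and 22 at 72 h. The last group lay above all others. The fitted change of 4.77 ± 0.72 at 72 h (adjusted p = 0.00022 in limma) rests on 2 serum reads against 87, a depth-scaled ratio of 41.0 with an exact 95% counting interval of 11.01 to 344. The change was 2.43 ± 0.72 at 24 h (adjusted p = 0.013 in limma) and 2.34 ± 0.72 from 24 to 72 h (adjusted p = 0.030), a call that 5 of the 6 fits leaving out a 24 or 72 h library lost. Hoxa4 had 1, 5 and 5 reads in serum and 40, 32 and 31 at 72 h. Hoxa6 had none in serum and 7, 4 and 6 at 72 h, at least 5.34-fold higher when serum is set to 3 reads over the group.

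From 24 to 72 h, 8 of the 17 were called, 7 higher and Hoxb1 lower, against 31.4% of tested genes called (15.4% higher). They included Hoxa3, Hoxa5, Hoxa7, Hoxa10, Hoxb9 and Hoxb13, and no HoxC or HoxD gene was called in this fit. Hoxa3, Hoxa5 and Hoxa10 had passed the filter only through their 72 h values and Hoxb1 only through 6 h. The count over the 17 is therefore a description. Without the filter 15 of 39 were called, 14 higher and Hoxb1 lower, against 23.6% of all genes, and Hoxc6 was the sole HoxC or HoxD gene among them. In the main fit Hoxa3 changed by 2.06 ± 0.30 (adjusted p = 0.00052 in limma) and Hoxb13 by 1.36 ± 0.33 (adjusted p = 0.0091). Hoxb1 fell by 2.08 ± 0.50 (adjusted p = 0.0094). The Hoxb1 call was lost with a pseudocount of 0.5 (adjusted p = 0.32) and with only the 6 samples compared (0.088), where that of Hoxb13 was lost too (0.062). With limma's voom on the recovered reads 13 of the 17 were called, against 33.2%, which added Hoxa4, Hoxc4, Hoxc10, Hoxc11 and Hoxd9. The comparisons against serum and against 24 h share samples, so their calls are not independent.

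Several members passed no test or passed it late. Hoxd13, the gene of the digits and genital tract, had values of -0.26, -0.27 and -0.47 in serum, -0.45, -1.12 and -1.57 at 6 h, -0.59, -0.65 and -0.42 at 24 h and -0.22, -0.52 and -0.58 at 72 h. Each group in 2i overlapped with serum, and no change was called (adjusted p = 0.087 in limma at 6 h and 0.75 at 72 h), except at 6 h without the first 6 h library (-1.01, adjusted p = 0.014). Hoxc12 had 6, 7 and 14 reads in serum, 16, 24 and 32 at 6 h, 2, 5 and 35 at 24 h and 25, 19 and 47 at 72 h, and replicate 3 was its highest library in reads at every time. Its change at 72 h was 1.65 ± 0.74 (adjusted p = 0.083 in limma), and it passed the threshold with the replicate number as a block (adjusted p = 0.015), with only the 6 samples compared (0.0073) and with a pseudocount of 0.5 (0.0495). At 6 h it passed with only the 6 samples compared (0.0062), and at 24 h it was called lower without replicate 3 of that time (-1.28, adjusted p = 0.028). Hoxb9 stayed at the serum level at 6 h, with -0.29, -0.61 and -0.04 against -0.55, -0.24 and -0.07, and reached 1.85, 1.74 and 2.00 at 72 h (change 2.15 ± 0.22, adjusted p = 9.6e-06 in limma). Hoxb7 had 36, 25, 46 and 48 reads over the 3 libraries of each time, and Hoxd11 had 24, 23, 23 and 42.

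The genes known to act on Hox clusters were described from lists of regulators. Among 11 upstream activators 9 were tested. Of these, 3 rose and 1 fell at 6 h, 3 rose and 3 fell at 24 h, and 3 rose and 4 fell at 72 h. These counts and those of the lists that follow stand beside 15.7%, 61.5% and 51.4% of all tested genes called at 6, 24 and 72 h. Cdx1, which switches on central and late Hox genes, rose by 3.57 ± 0.34 at 6 h (adjusted p = 3.1e-05 in limma) and by 4.89 ± 0.34 at 72 h (adjusted p = 5.2e-07). Cdx2 was called lower at 24 h and was not called at 6 or 72 h. Rarb, a retinoic acid receptor that is itself a retinoic acid target, rose by 2.59 ± 0.23 in the first step, and stood 1.20 ± 0.23 above serum at 24 h and 2.03 ± 0.23 above it at 72 h (adjusted p = 1.8e-05 in limma, 0.00099 and 2.4e-05). Rarg fell by 2.08 ± 0.12 at 72 h, and Wnt3a changed by 1.70 ± 0.43. Wnt3a ran from -3.56 to -0.18 over the 12 libraries. Listed genes also had to reach -1 in 3 libraries, and the time that admitted each was not tabulated. Changes of low genes such as Wnt3a may therefore draw on the values that admitted them.

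The letters TTTATG, the core that CDX proteins are known to bind, or CATAAA on the other strand, occurred in 5 of the 24 Hox windows (Hoxa7, Hoxb8, Hoxd3, Hoxd4 and 1 of 2 starts of Hoxd11), against 11.9% of all promoter windows. Of these genes only Hoxa7 passed the filter. A match is no sign that a protein binds there.

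Of 17 Polycomb and trithorax genes tested, 2 rose and 2 fell at 6 h, 3 rose and 9 fell at 24 h, and 4 rose and 5 fell at 72 h. Phc1 and Jarid2, which belong to the Polycomb complexes PRC1 and PRC2 in that order, fell by 1.81 ± 0.21 and 1.38 ± 0.18 at 72 h (adjusted p = 3.0e-05 in limma and 8.3e-05). Ezh2, the H3K27 methyltransferase, changed by 0.32 ± 0.09 and Bmi1 by 1.51 ± 0.19 at 72 h. Of 8 TALE genes tested, which encode the PBX, MEIS and PKNOX partners of HOX proteins, 3 rose at 6 h and none fell. At 72 h Meis2 and Pknox2 were higher (0.89 ± 0.21 and 0.71 ± 0.18) and Pbx2 lower (-0.61 ± 0.12).

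Other homeobox genes outside the clusters did not move as a block. Of 5 tested ParaHox and related genes, 2 rose and 2 fell at 72 h. Gsx2 changed by 2.90 ± 0.46 and Mnx1 by 2.66 ± 0.42, whereas Gsx1 fell by 5.26 ± 0.47 and Gbx2 by 2.39 ± 0.14. Over the 12 libraries Gsx1 ran from -5.50 to 0.02, so the size of its fall depends on values near the floor. The limit on admission stated for the listed genes above holds here too. Evx2, which lies 8.45 kb beyond Hoxd13, had no read in any library. Cbx5, which lies 155 kb beyond HoxC, and Skap2, 143 kb from HoxA, were expressed in all libraries, from 4.07 to 6.00 and from 3.68 to 5.14.

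H3K9me2 was very low over the genes of all 4 clusters. Levels are log2 of bound over input signal in the 2-kb bins that overlap a gene, so 0 means as much signal as in the input. The median over the 39 genes was -3.33 and -3.59 in the serum libraries, against -0.87 and -0.97 over 23602 genes. All 39 genes lay below 0 in all 6 libraries, as did 74.1% to 79.6% of all genes. Cluster medians in serum were -3.54 ± 0.10 (SD, n = 2) for HoxA, -3.85 ± 0.17 for HoxB, -3.24 ± 0.07 for HoxC and -2.93 ± 0.04 for HoxD. Pooled over the bins of their members, the clusters held -3.14, -3.06, -2.77 and -2.52 in that order in serum, while the 100 kb on each side held -1.0, -1.11, -0.20 and -0.43. In all 6 libraries the member bins of each cluster lay below its own flanks. The bins between members held -2.76, -2.48, -2.59 and -0.90 in serum in the same order, so those of HoxD lay near the all-gene medians.

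**Figure D4:**
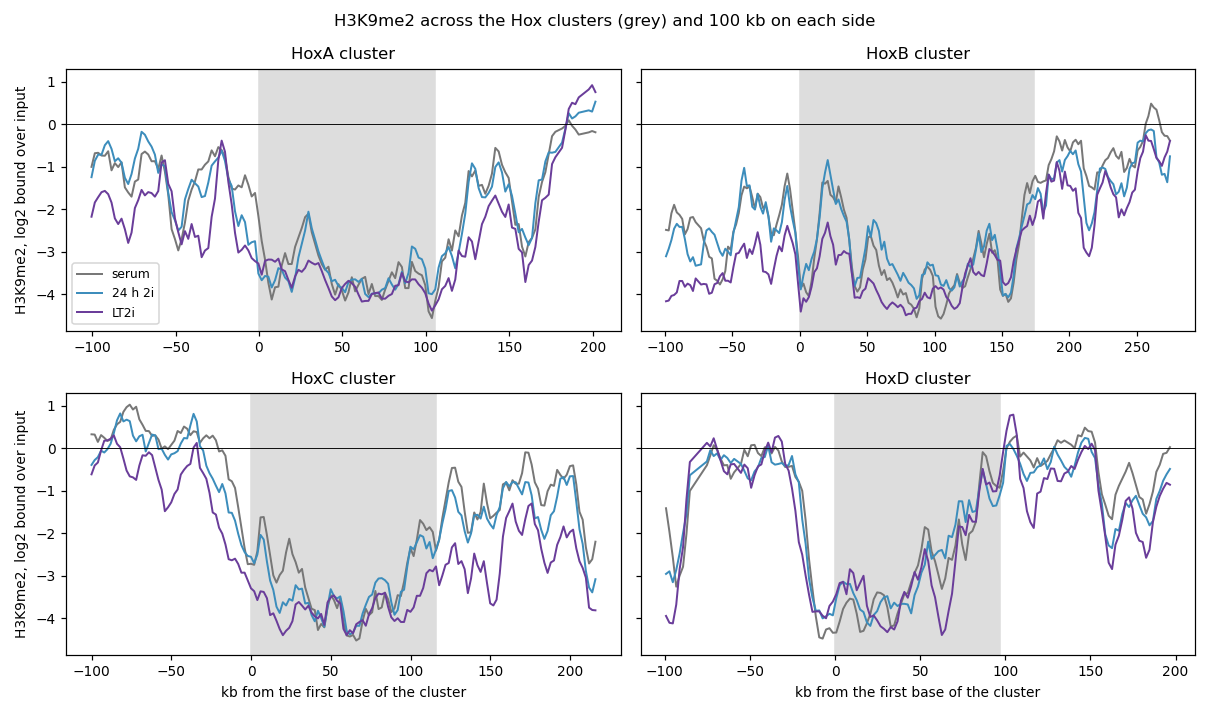
H3K9me2 as log2 bound over input (y axis) in 2-kb bins along each Hox cluster (grey) and 100 kb on each side (x axis, kb from the first base of the cluster), as the mean of 2 libraries per condition smoothed over 5 bins (10 kb). The signal drops at the edges of all 4 clusters, and the bins between members reach -0.90 in HoxD in serum.

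In HoxB, HoxC and HoxD the gene with the most of the mark stood at an end. The highest serum levels there were -1.40 and -1.24 for Hoxb1, -1.81 and -2.07 for Hoxc13 and -1.40 and -1.42 for Hoxd1. In serum replicate 2 Hoxc4, at the other end of HoxC, stood above Hoxc13, with -2.09 and -2.01. Each of these genes is the first or last of its cluster, although the opposite ends of HoxB and HoxD, Hoxb13 at -4.20 and -3.39 and Hoxd13 at -5.06 and -5.01, were low, as was Hoxa13 at -4.74 and -4.69. By the mean of both libraries, the lowest levels in the other clusters were -4.91 and -4.86 for Hoxa2, -4.32 and -4.48 for Hoxb6, -4.59 and -4.44 for Hoxb8, and -4.50 and -4.20 for Hoxc9. Hoxa2 and Hoxd13 had no bound read in either serum library and 55 and 61 input reads, so their levels sit at the floor that the table gives to a bin without reads. Hoxd3, the longest HoxD gene, held 100 and 104 bound reads and a level of -2.20 and -2.10. The next genes outside were mostly higher, with -0.80 and -0.73 for Mtx2 beyond HoxD and -0.90 and -0.90 for Skap2. However, Evx2 (-3.40 and -3.31), Gm15053 1.90 kb beyond HoxA (-3.15 and -2.68) and Cbx5 beyond HoxC (-2.96 and -2.79) were as low as the clusters. Calcoco1, on the other side of HoxC, stood at -2.61 and -2.12.

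Hoxc13 was among the more expressed members in serum and carried the highest mean H3K9me2 level of HoxC, while Hoxb9 and Hoxd13, whose expression overlapped with it, had 7 and 6 bound reads and none in the serum libraries. Hoxd1 carried the highest level in HoxD with 6, 3 and 5 RNA reads in serum.

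Reads over the members were few, which limits every comparison of single genes. The median member held 6 bound reads in serum replicate 1, and 25 of the 39 had fewer than 10 in all 6 libraries. At 24 h of 2i no gene was called among 23602 by limma on the bound signal (0.0% called). At an unadjusted p under 0.05 there were 2758 genes, and 839 were called by voom on the recovered reads (3.55%), none of them a Hox gene. The median change of the 39 was 0.04, against -0.03 over all genes. The widest changes were -1.39 ± 0.31 for Hoxc11, from 4 and 7 reads to 1 and 0, and 1.06 ± 0.41 for Hoxc12, from 1 and 4 to 4 and 5. No change was detectable at this depth.

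In LT2i, 13 of the 39 were called, 11 lower and 2 higher, against 55.5% of all genes called (49.4% lower and 6.06% higher). The median change of the 39 was -0.48 and that of all genes -0.60. After quantile normalisation, which sets the all-gene median to 0.00, 6 of the 39 were called, 5 higher and 1 lower, against 17.5%, and the Hox median turned to 0.35. The 5 higher were Hoxa2, Hoxb4, Hoxb6, Hoxd11 and Hoxd13. In that order they had 0, 5, 8, 7 and 0 bound reads over the serum libraries and 10, 11, 7, 15 and 5 over LT2i. Members at or near the floor can hardly fall further, which limits the reading of these higher calls and of this median. The tests above use the bound signal alone, scaled for library depth, so a change is relative to the rest of its library. With the input subtracted 13 of the 39 were called, 8 lower and 5 higher, against 53.9%, and the Hox median was -0.29 against -0.56 over all genes.

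**Figure D5:**
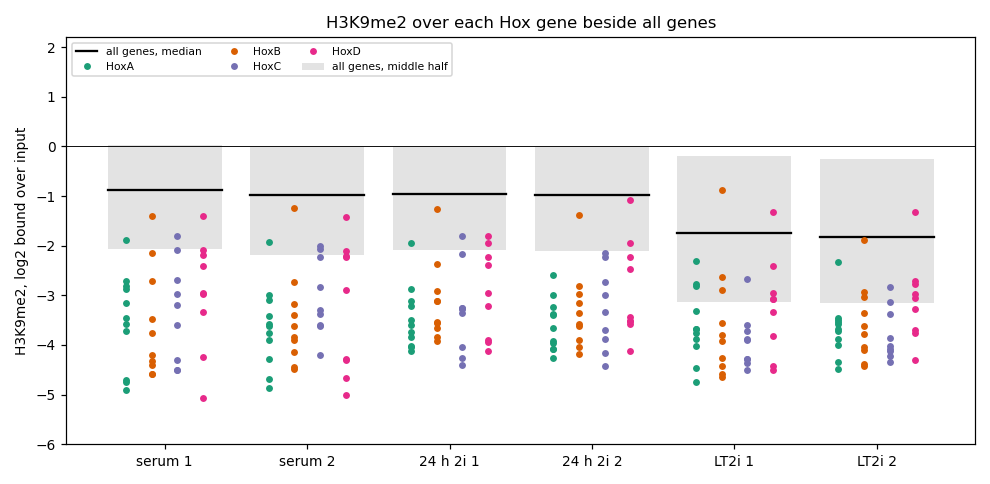
H3K9me2 level as log2 bound over input (y axis) of each Hox gene (points, coloured by cluster) in the 6 bound libraries (x axis), beside the interquartile range (grey box) and median (line) of 23602 genes. The all-gene median drops from -0.87 and -0.97 in serum to -1.75 and -1.83 in LT2i, while the Hox median goes from -3.33 and -3.59 to -3.76 and -3.67.

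Of the 11 called lower, 5 lay in HoxC. Hoxc13 had 31 and 24 bound reads in serum, 17 and 17 at 24 h and 9 and 11 in LT2i, and fell by 1.21 ± 0.22 (adjusted p = 0.0073 in limma). Hoxc4 had 55 and 56, then 46 and 38, then 32 and 15, and fell by 1.03 ± 0.28 (adjusted p = 0.025). In both genes the LT2i libraries lay below both serum libraries, but after quantile normalisation neither was called and Hoxc4 stood at 0.04. Hoxc11 had 4 and 7 reads in serum and none in LT2i, at least 3.32-fold lower when LT2i is set to 3 reads over the group (adjusted p = 0.0075), and was the sole Hox gene called lower after quantile normalisation, but missed the threshold with 2 kb added on each side (0.054). Hoxc5 and Hoxc8 went from 7 and 6 to 2 and 3 reads and from 5 and 7 to 4 and 2.

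The other 6 called lower were Hoxa7 (13 and 5 reads in serum, 3 and 1 in LT2i), Hoxb7 (18 and 8, 3 and 2), Hoxb9 (7 and 6, none), Hoxd4 (25 and 22, 14 and 13), Hoxd10 (7 and 7, 3 and 1) and Hoxd12 (10 and 11, 5 and 4). Their fitted changes ran from -1.46 for Hoxb7 to -0.65 for Hoxd4. The 2 called higher were Hoxa2, which went from 0 and 0 reads to 5 and 5 and was at least 3.68-fold higher when serum is set to 3 reads over the group, and Hoxb4, with 1 and 4 reads in serum and 7 and 4 in LT2i. When 2 kb were added on each side neither was called, and Hoxa2 stood at 0.39 (adjusted p = 0.43 in limma) in place of 1.74. Hoxb4 changed by 0.95 ± 0.28 (adjusted p = 0.031 in limma) but stood at -0.27 with the 2 kb added, and its groups overlapped in reads. Of the 13 called, 7 had fewer than 20 bound reads over serum and LT2i together. With each library left out in turn 4 to 7 of the 39 were called, the fewest without serum replicate 1, against 38.6% to 46.1% of all genes in the same fits. Hoxb1 and Hoxd1 kept the most H3K9me2 in LT2i, at -0.88 and -1.89 and at -1.32 and -1.31. Neither was called in the main fit. Hoxb1 was called lower with 2 kb added on each side (-0.82, adjusted p = 0.030 in limma) and with the mean of log2 bin values (-0.69, adjusted p = 0.019). Without LT2i replicate 1 its change was -0.86.

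Members called in RNA at 72 h were found both with and without an H3K9me2 call in LT2i. Hoxc4, Hoxc11, Hoxc13, Hoxa7 and Hoxb9 were called higher in RNA and lower in H3K9me2. Hoxa3, Hoxa4, Hoxa5, Hoxa10, Hoxb13, Hoxc10, Hoxd8 and Hoxd9 were called higher in RNA, and Hoxb1 lower, without an H3K9me2 call in the main fit. Of these, Hoxa10 and Hoxb1 had no called RNA change at 24 h, while the others were called higher then. Over all genes, 49.4% were called lower in H3K9me2 in LT2i. A link between the calls was not tested. Hoxb1 had 25 and 27 bound reads in serum, 20 and 19 at 24 h and 28 and 12 in LT2i. Hoxa10 had 11 and 11, 8 and 4, and 8 and 4. The RNA and ChIP series share only serum and 24 h, since LT2i has no RNA library here, so the times could not be matched further.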

How the data were processed

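RNA-seq of 12 E14 samples (TruSeq v2, a kit that does not mark strand) and H3K9me2 ChIP-seq of 6 bound and 3 input samples were used. The submitters' processing notes name Trim Galore 0.3.5, TopHat2 2.0.11, Bismark 0.12.3 and Bowtie2, without saying which step used which, and no counter is named in the sources used. For RNA the authors deposited log2 values per gene length and depth, set to a common 75th percentile, with a gene without reads entered as 0.9 reads. For ChIP they deposited log2 values per 2-kb bin (1026637 bins), scaled between libraries. The value of 1 read was 1.63 in 24 h replicate 1, with 14396552 reads in bins, and 1.0 in the 24 h input, with 23785128. A loss shared by the whole genome would therefore not show in these values. The bins listed held at least 6 reads in every input. RRBS and ChIP-BS, placed on NCBIM37, were not used here, and 0 columns of per-sample values in the used tables were left out.

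Reads were recovered from the values where all libraries gave whole numbers (98.4% of genes, all 39 Hox genes). Changes were fitted with limma 3.58.1 in R 4.3.3 (eBayes with trend, 12 RNA or 6 bound ChIP samples in 1 fit, two-sided, Benjamini-Hochberg over all genes tested, threshold 0.05). RNA genes needed a log2 value of at least -1 in 3 libraries. The ChIP signal of a gene was the log2 mean of the linear bound signal over the bins from its start to its end. The fits were tested on simulated data. Intervals are exact (Clopper-Pearson) and, like floors of 3 reads, cover counting error only. Overlapping and antisense genes cannot be told apart in these libraries.

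The members and lists were chosen with earlier results of these data known. A HoxA member is not reported here: it stays in the fits and in counts over all members, but was left out of the read sums and of the plots of named genes. Each other tested Hox gene was named, with full statistics for up to 6 called members per comparison with the largest change; lower members were named with reads. For H3K9me2 the highest and lowest member per cluster and each called member were named. Genes of other lists were named for up to 4 called at 72 h, with the nearest genes on each side of a cluster. Pou5f1, Neurog2, Tubb3, Ezh2 and Cdx2 were added after their values were seen. Alternatives were other scalings, filters, pseudocounts, spans and left-out samples. Replicate numbers were not taken as pairs.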

Additional observations from a re-analysis of the deposited data

Results flagged for a closer look

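A test of the difference between times picked out 3 genes whose change against serum had opposite signs at different times. On the log2 scale Hoxb1 stood at 2.95 after 6 h, -0.46 after 24 h and -2.55 after 72 h. The difference was -3.41 ± 0.50 (limma adjusted p = 0.00027) between 24 and 6 h and -5.50 ± 0.50 (adjusted p = 9.0e-06) between 72 and 6 h. Hoxa10 changed by -1.22 at 6 h, which missed the threshold, and 4.07 at 72 h, a difference of 5.29 ± 0.39 (limma adjusted p = 2.1e-06). The 3 changes of Hoxb9 were -0.02, 0.88 and 2.15 in order of time, with differences from 6 h of 0.91 ± 0.22 (limma adjusted p = 0.0046) and 2.17 ± 0.22 (adjusted p = 1.6e-05), so its sign at 6 h carries no weight. Hoxb1 was admitted to the fit only by its 6 h values and Hoxa10 only by its 72 h values, so these differences are drawn from the time that admitted the gene.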

How the results depend on the processing

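For the Hox genes called in RNA, 645 of 669 refits over the alternatives kept direction and call and 24 lost the call. For those called in H3K9me2 in LT2i, 73 of 143 refits kept both, 65 lost the call and 5 reversed; with a library left out 31 of 52 lost it, and all 13 genes lost their call in at least 1 refit. With a filter of 0 in place of -1, 9 members were tested and 4, 7 and 8 were called against serum after 6, 24 and 72 h, and 5 from 24 to 72 h (all genes: 15.6%, 63.3%, 52.2% and 31.6% called). Without a filter the last 2 counts were 23 and 15 of 39 (all genes: 41.1% and 23.6%). From 24 to 72 h a pseudocount of 0.5 gave 13 (all genes: 32.3%) and voom, chosen after seeing the data, gave 13 (33.2%). In LT2i 6 were called after quantile normalisation (all genes: 17.5%), 8 with 2 kb added on each side (62.9%) and 8 with the mean of log2 bin values (54.7%), and 4 to 7 with a library left out (38.6% to 46.1%). The direction turned for Hoxb4 (-0.27, with 2 kb added) and, after quantile normalisation, for Hoxc4 (0.043), Hoxc8 (0.048), Hoxd4 (0.44) and Hoxd12 (0.031). The cause was not tested. H3K9me2 levels in serum with 2 kb added were -3.67 in HoxB, -2.99 in HoxC and -3.21 in HoxD, and in LT2i -3.66 in HoxA and -3.26 in HoxD. From mean log2 values they were -3.80 in HoxA, -3.55 in HoxC and -3.14 in HoxD in serum, and -3.79 in HoxA, -3.90 in HoxB and -3.31 in HoxD in LT2i. The Hoxa4 call at 24 h was lost in 5 of 6 fits that left out a library, with adjusted p (limma) from 0.056 to 0.19, and also without a filter (0.059), after quantile normalisation (0.092) and with the span trend removed (0.11). That of Hoxa5 was lost without the first 24 h library (0.050) and with a pseudocount of 0.5 (0.067).

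Samples with the same replicate number correlated from -0.17 to 0.75 in RNA (median 0.20, against -0.14 between numbers) and by at most 0.064 in H3K9me2. Those numbered 3 correlated at 0.32 to 0.75 with one another in RNA, and 7 of 12 libraries correlated best with their own number. Since not every pair exceeded 0.1 and no label ties the numbers to a batch, the samples were not treated as pairs. With the number as a block 7, 13 and 16 Hox genes were called against serum and 10 from 24 to 72 h (all genes: 20.5%, 69.0%, 59.7% and 45.8%), and for H3K9me2 10 in LT2i (54.7%) and 0 at 24 h (0.0%).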
